A study of Sus scrofa with 23 samples.

Results

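Transcripts of coronary artery segments with severe atherosclerosis were compared with those of segments with mild atherosclerosis, in both cases from animals without diabetes. The comparison takes in the 5 libraries titled severe and the 4 titled mild, 9 of the 23 libraries of the series, and covers 35228 gene names. Both groups came from hypercholesterolemic swine of the Yorkshire breed, a farm pig used to model human coronary disease, and high blood cholesterol was shared by severe and mild segments alike. Each sample was a 3-mm length of coronary artery graded by histopathology. Moderate segments without diabetes (4 libraries) and severe segments with diabetes (4 libraries) are used only to set values side by side. Severe replicate 5 carries labels that disagree, being severe without diabetes by its title and source name but moderate with diabetes by its characteristics. Standard errors in the deposited tables give a ratio of the mild group's variance to the severe group's variance of 1.25, as 5 against 4 libraries would, so its title was what the authors followed. Only group means were used here, so no result could be recomputed without that library and no value of a single segment can be given.

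The labels tie no segment to an animal. The spread behind each p is therefore that between segments, and a p is too small where a group holds several segments of 1 animal. Pairing of severe and mild segments by animal was not possible. Each mean, log2 fold change, standard error (after ±) and p below is taken from the authors' deposited table of severe over mild segments unless another source is named. The means are normalized counts, the p-values are from the Wald test of DESeq2 with its Benjamini-Hochberg adjustment, and a gene counts as higher or lower in severe segments at an adjusted p under 0.05. Normalized counts summed to 10988718 in severe and 11711493 in mild segments as group means. The median standard error was 0.206 on the log2 scale for the 12803 genes whose mean reached 50 in both groups and 0.495 for tested genes below that mean, so small differences were detectable mainly among well covered genes. In whole pieces of artery, fewer cells of a type and less RNA per cell cannot be told apart.

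An atherosclerotic lesion grows where lipoproteins lodge in the inner wall of an artery. Macrophages take up the lipid and become foam cells, which digest it in acid lysosomes, export cholesterol and secrete proteases that cut matrix. Smooth muscle cells of the media, which hold the contractile proteins, fibroblasts of the adventitia, nerves, lymphatic vessels and neighbouring heart muscle and fat can all enter a segment of coronary artery in amounts that vary with the dissection. Artery wall was well represented in both groups. ACTA2, the smooth muscle actin, averaged 33190 normalized counts in severe and 39101 in mild segments, and PECAM1, an adhesion protein of endothelium, averaged 2618 in severe and 3922 in mild segments. CDH5, CD68 and HBA, markers of endothelium, macrophages and red cells, were not matched and were not analysed here.

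Severe segments held far more RNA of genes known from osteoclasts and lipid-laden macrophages, and more RNA of lysosomal genes, than mild segments. Most markers of adventitial fibroblasts and some elastic fibre, contractile and mitochondrial genes were lower. Of the 20294 genes with an adjusted p in the authors' deposited table, 1460 (7.19%) were higher and 975 (4.80%) lower in severe segments by DESeq2. At least 2-fold changes were found for 778 of the higher and 460 of the lower genes, and at least 16-fold changes for 34 of the higher and 9 of the lower genes. The genes called higher supplied 10.7% of all normalized counts in severe and 4.55% in mild segments. Those called lower supplied 5.22% in severe and 9.17% in mild segments. The Wald test uses a normal distribution. With a t distribution on 18 residual degrees of freedom, computed here, 1026 genes were higher and 374 lower. These 18 are the 23 libraries less the 5 groups, which takes the authors' fit to hold all 5 groups. Whether it did is not stated. The standard errors follow library number, with a spread per gene shared by the groups compared, which points to a fit beyond the 9 libraries. For ACTA2 they were 0.22 for severe over mild, severe over moderate and severe diabetic over severe segments, and 0.23 for moderate over mild. For MYH7, a heart muscle gene, they were 1.41 and 1.48 in that order. Moderate diabetic segments are in none of these comparisons, so their part in the fit is unknown. A fit to fewer libraries would make this alternative stricter.

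**Figure D1:**
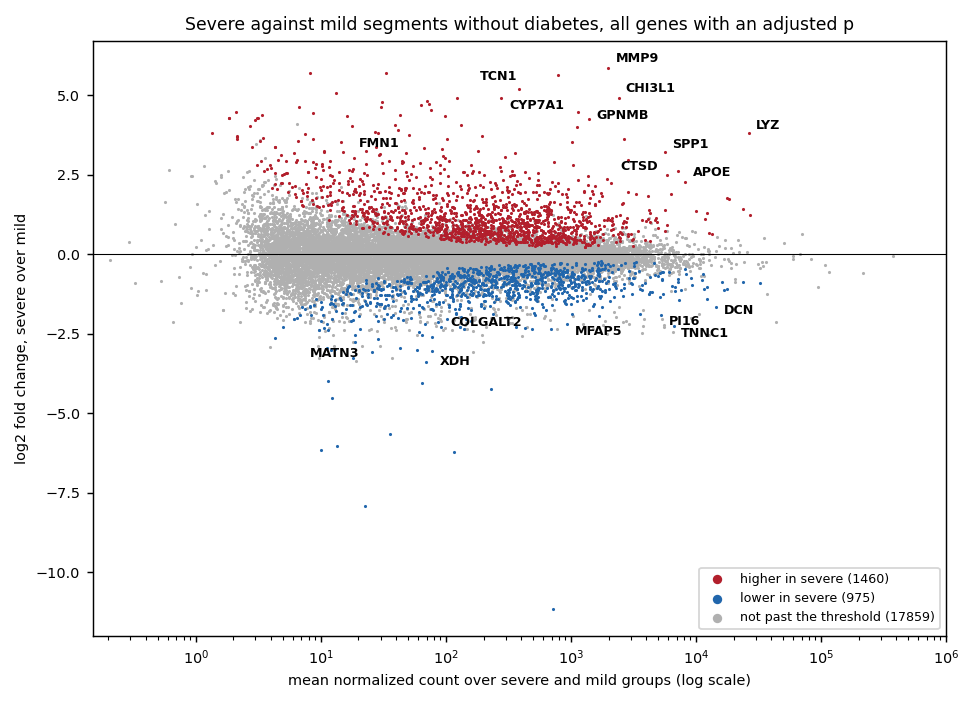
Log2 fold change of severe over mild segments against the mean normalized count over both groups (log axis) for the 20294 genes with an adjusted p in the authors' deposited table. Red points are the 1460 genes higher in severe segments, blue points the 975 lower and grey points the rest. Named macrophage and lysosome genes lie at the top over a wide range of means, and the lone blue point near the bottom edge is a name without a gene symbol.

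Among genes that carry a symbol and whose mean over both groups reached 20, the largest rise was that of MMP9, a gelatinase secreted by macrophages and osteoclasts that lies at chromosome 17, 48179690 to 48186782, in Sscrofa11.1. MMP9 averaged 3909.8 normalized counts in severe and 67.2 in mild segments, and moderate segments stood between them at 2351. Next came TCN1, the vitamin B12 carrier haptocorrin (chromosome 2, 11633377 to 11646261). TCN1 averaged 752 normalized counts in severe and 20.6 in mild segments, a 36.8-fold difference (log2 5.20 ± 0.52, adjusted p = 2.88e-20 by DESeq2, from the authors' deposited table). CYP7A1, the rate-limiting enzyme of bile acid synthesis and known chiefly from liver, lies at chromosome 4, 74343101 to 74372628. CYP7A1 averaged 2190.3 normalized counts in severe and 99.1 in mild segments (log2 4.47 ± 0.39, adjusted p = 1.5e-26 by DESeq2). Moderate segments already held 1924 normalized counts of CYP7A1 and severe diabetic segments 4303.

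Several of the other large rises are of genes that are better known from tissues other than arteries. TREH, which encodes the trehalose-splitting enzyme of the intestinal and renal brush border, was 16.8-fold higher, with means of 250.1 in severe and 14.9 in mild segments. HRK, an activator of cell death of the BCL2 family, was 20.6-fold higher, and BHMT2, a methyltransferase that forms methionine from homocysteine, was 20.7-fold higher. PRKG2, a cyclic GMP-dependent kinase, was 14.0-fold higher (log2 3.81 ± 0.57, adjusted p = 1.91e-09 by DESeq2). All 15 genes with the largest rises had a log2 fold change of 3.81 or more and a standard error of at most 0.79, and all 15 passed the threshold under the t distribution as well.

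Among the genes with the smallest adjusted p were modest changes with small errors. PLXNC1, a semaphorin receptor of leukocytes, averaged 2765 normalized counts in severe and 776 in mild segments (log2 1.83 ± 0.15, adjusted p = 2.78e-29 by DESeq2). CSF2RB, the shared signalling chain of the GM-CSF, IL-3 and IL-5 receptors, averaged 532 in severe and 142 in mild segments, 3.72-fold higher. ADAM28, a membrane protease, rose 6.97-fold and BASP1, a cytoskeletal protein of the cell membrane, 5.93-fold. FMN1, a formin that nucleates actin filaments, rose 9.12-fold (log2 3.19 ± 0.29, adjusted p = 1.85e-25). FMN1 was also the only gene called higher when severe were compared with moderate segments, where the authors' deposited table gave 1 gene higher (0.00507%) and 3 lower (0.0152%) of 19716. Its means were 9.85 in mild, 47.2 in moderate and 85.5 in severe segments (log2 of severe over moderate 0.87 ± 0.19, adjusted p = 0.0337 by DESeq2).

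**Figure D2:**
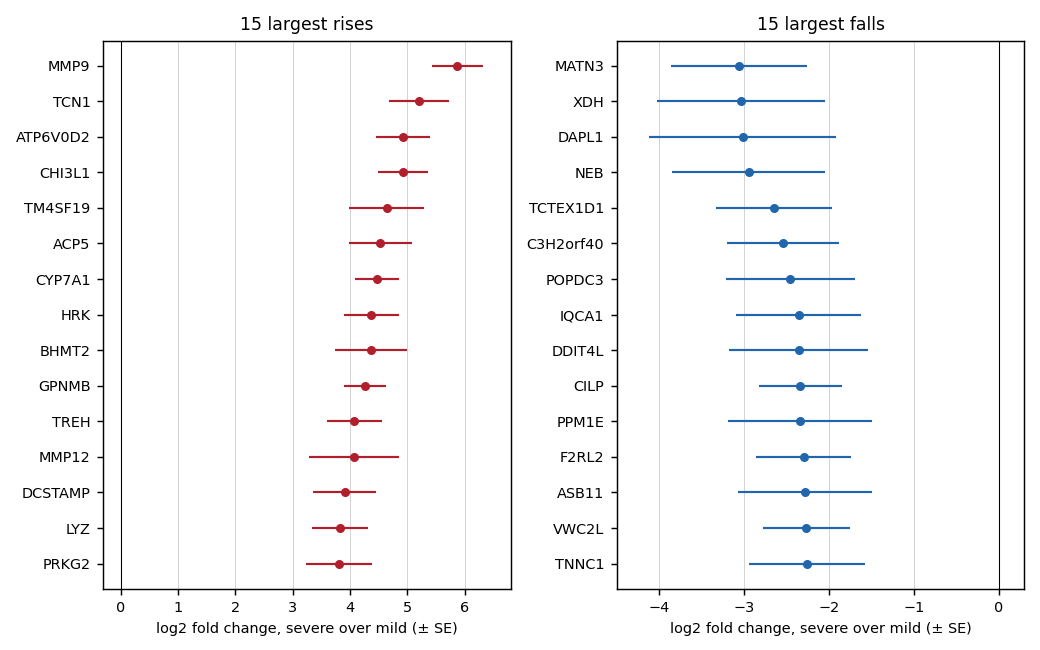
Log2 fold change of severe over mild segments, with standard errors as bars, for the 15 largest rises (left) and the 15 largest falls (right) among genes past the threshold that carry a symbol and whose mean over both groups reached 20. The bars of the rises are short beside their distance from 0, while those of several falls, such as DAPL1 and XDH, are long beside it.

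The 15 largest falls were smaller than the 15 largest rises and had wider errors, with standard errors of 0.49 to 1.10 for the falls and 0.36 to 0.79 for the rises. MATN3, a matrilin of cartilage matrix, averaged 5.51 normalized counts in severe and 45.5 in mild segments (log2 -3.06 ± 0.80, adjusted p = 0.00276 by DESeq2). CILP, another cartilage matrix protein, averaged 230 in severe and 1162 in mild segments, with the smallest adjusted p among the 15 largest falls (log2 -2.34 ± 0.49, adjusted p = 6.62e-05). XDH, the xanthine dehydrogenase that makes uric acid, averaged 16.8 in severe and 138 in mild segments (log2 -3.04 ± 0.99, adjusted p = 0.024). F2RL2, a thrombin-cleaved receptor, fell to 124 in severe, against 608 in mild segments, and VWC2L, a secreted protein, to 31.5 in severe, against 152 in mild segments. NEB and TNNC1, which encode nebulin and troponin C of striated muscle, are among the 15 as well. XDH, DAPL1, NEB, POPDC3, DDIT4L, IQCA1, PPM1E, ASB11 and TNNC1 missed the threshold under the t distribution.

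The lower genes with the smallest adjusted p fell by less and were steadier. COLGALT2, an enzyme that adds galactose to collagen, averaged 71.6 normalized counts in severe and 229 in mild segments (log2 -1.68 ± 0.26, adjusted p = 8.41e-09 by DESeq2). ADD3, an adducin that links actin to spectrin, averaged 1578 in severe and 3411 in mild segments (log2 -1.11 ± 0.20, adjusted p = 8.6e-07). TET1, which oxidises methylated cytosine in DNA, averaged 442 in severe and 705 in mild segments (log2 -0.68 ± 0.12, adjusted p = 4.76e-07). SDPR, a coat protein of caveolae, averaged 672 in severe and 1836 in mild segments, and MUSK, the muscle-specific kinase of the nerve-muscle synapse, 624 in severe and 1258 in mild segments.

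Means of the moderate group, set beside these, lay near the severe ones for several of the largest changes. CHI3L1, a chitinase-like protein of macrophages, averaged 154 normalized counts in mild, 4244 in moderate and 4662 in severe segments. TM4SF19, a tetraspan membrane protein, averaged 2.45 in mild, 53.1 in moderate and 57.8 in severe segments. TCN1 and MATN3 were spread more evenly over the grades, TCN1 with 20.6 in mild, 178 in moderate and 752 in severe segments, and MATN3 with 45.5 in mild, 21.6 in moderate and 5.51 in severe segments. In the authors' deposited table of moderate over mild segments, which shares the mild libraries, 660 genes (3.56%) were higher and 200 (1.08%) lower of 18561.

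**Figure D3:**
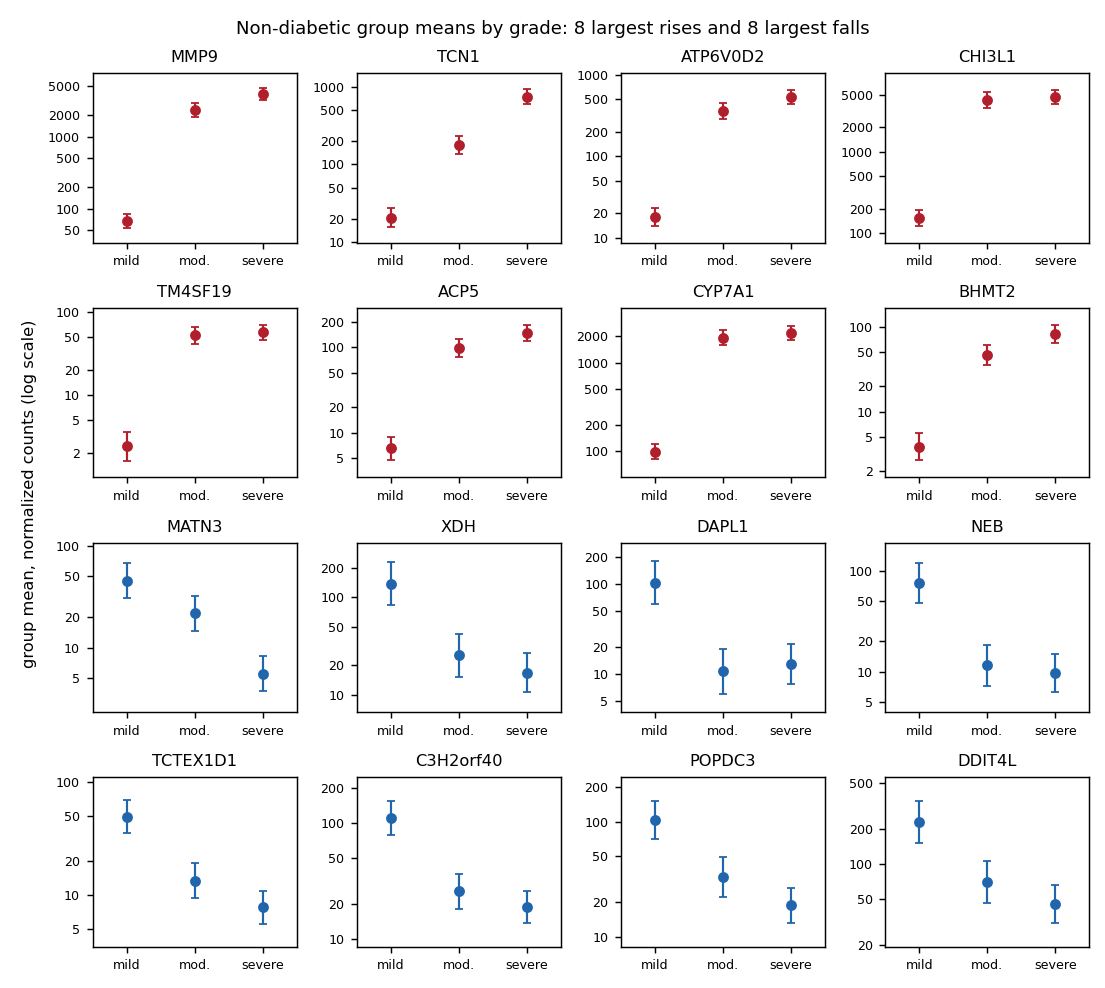
Group means in normalized counts (log axes) of mild, moderate and severe segments without diabetes for the 8 largest rises (red, upper rows) and the 8 largest falls (blue, lower rows). Bars are 1 standard error of each group on the log2 scale, solved from the standard errors of the deposited comparisons. They reflect a spread per gene shared by the groups, with library number and mean, and not the scatter within each group. For CHI3L1, TM4SF19 and CYP7A1 the moderate and severe means lie close together, and for TCN1 and MATN3 the moderate mean lies apart from both others.

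Genes of osteoclasts, the bone-resorbing relatives of macrophages, rose for most members. Of 20 members tested, 13 (65.0%) were higher and 0 lower in severe segments. The median log2 fold change was 1.93, against -0.03 for all genes with an adjusted p. Counts in this and later lists can be read beside the 7.19% higher and 4.80% lower of all tested genes. ATP6V0D2, an osteoclast subunit of the proton pump, averaged 534.5 normalized counts in severe and 17.9 in mild segments (log2 4.93 ± 0.47, adjusted p = 1.96e-22 by DESeq2). ACP5, the tartrate-resistant acid phosphatase, averaged 146 in severe and 6.55 in mild segments. DCSTAMP, needed for the fusion of osteoclast precursors, averaged 77.2 in severe and 5.03 in mild segments. CALCR, the calcitonin receptor, rose 4.95-fold, and CTSK, the collagen-cutting cathepsin K, averaged 10013 in severe and 2668 in mild segments. The receptor for the osteoclast-forming signal and its main transcription factor did not pass the test: TNFRSF11A had a log2 fold change of -0.17 ± 0.21 (adjusted p = 0.69) and NFATC1 of 0.49 ± 0.30 (adjusted p = 0.32). This list, like those below, was chosen with earlier results of these data known, so its counts are a description and not independent support. TNFRSF11A, NFATC1 and CTSK were chosen after their values were seen.

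Genes of lipid-laden macrophages were higher for 13 of 16 members tested and lower for 0, with a median log2 fold change of 2.22, and supplied 0.659% of all normalized counts in severe and 0.21% in mild segments. GPNMB, a membrane glycoprotein of lipid-loaded macrophages, averaged 2635 normalized counts in severe and 138 in mild segments. LGALS3_1, the more abundant numbered copy of galectin-3, averaged 5074 in severe and 645 in mild segments (log2 2.98 ± 0.31, adjusted p = 6.2e-19 by DESeq2). SPP1, the secreted matrix protein osteopontin, rose 9.30-fold and APOE, the apolipoprotein that takes up exported cholesterol, 4.88-fold. MSR1, the scavenger receptor that takes up modified lipoprotein, averaged 2551 in severe and 576 in mild segments. CD36, another such receptor, was not past the threshold, with 7533 in severe and 9926 in mild segments (log2 -0.40 ± 0.32, adjusted p = 0.49).

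General markers of macrophages were divided. Of 18 tested, 7 were higher and 2 lower in severe segments, with a median log2 fold change of 0.72. LYZ, lysozyme, averaged 49312 normalized counts in severe and 3468 in mild segments (log2 3.83 ± 0.49, adjusted p = 1.81e-12 by DESeq2). VSIG4, a complement receptor, rose 3.06-fold and LAPTM5, a lysosomal protein of blood cells, 3.08-fold. CSF1R, the growth factor receptor that macrophages depend on, averaged 1485 in severe and 1757 in mild segments (log2 -0.24 ± 0.25, adjusted p = 0.62). CD14 and CD163 had log2 fold changes of 0.71 ± 0.30 and 0.64 ± 0.31 and did not pass (adjusted p = 0.11 and 0.18). LYVE1, the hyaluronan receptor of resident macrophages near the outer wall and of lymphatic vessels, fell to 286 in severe, against 910 in mild segments (log2 -1.67 ± 0.48, adjusted p = 0.00719). MRC1, the mannose receptor, fell to 1040.1 in severe, against 2182 in mild segments (adjusted p = 0.0342), and missed the threshold under the t distribution.

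Signalling genes of myeloid cells were higher for 21 of 22 members tested and lower for 0 (median log2 fold change 1.37). FCGR1A, a high-affinity antibody receptor, averaged 410 normalized counts in severe and 86.6 in mild segments, and FCER1G, the chain through which such receptors signal, 511 in severe and 129 in mild segments. SLC7A7, an amino acid carrier of macrophages, rose 2.55-fold with a small error (log2 1.35 ± 0.17, adjusted p = 1.47e-12 by DESeq2). The kinase gene FGR was the member that did not pass (log2 0.34 ± 0.20, adjusted p = 0.31). Transcription factors of macrophages moved by less, with 9 higher and 0 lower of 16 and a median log2 fold change of 0.75. SPI1, the master factor PU.1, rose 2.07-fold (log2 1.05 ± 0.20, adjusted p = 4.66e-06) and NR1H3, the oxysterol receptor LXR alpha, 2.13-fold. TFEB and TFE3, which drive lysosomal genes, had log2 fold changes of 0.39 ± 0.18 and 0.12 ± 0.12 and did not pass (adjusted p = 0.14 and 0.59). FCGR1A, FCER1G, TFEB and TFE3 were chosen after their values were seen.

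**Figure D4:**
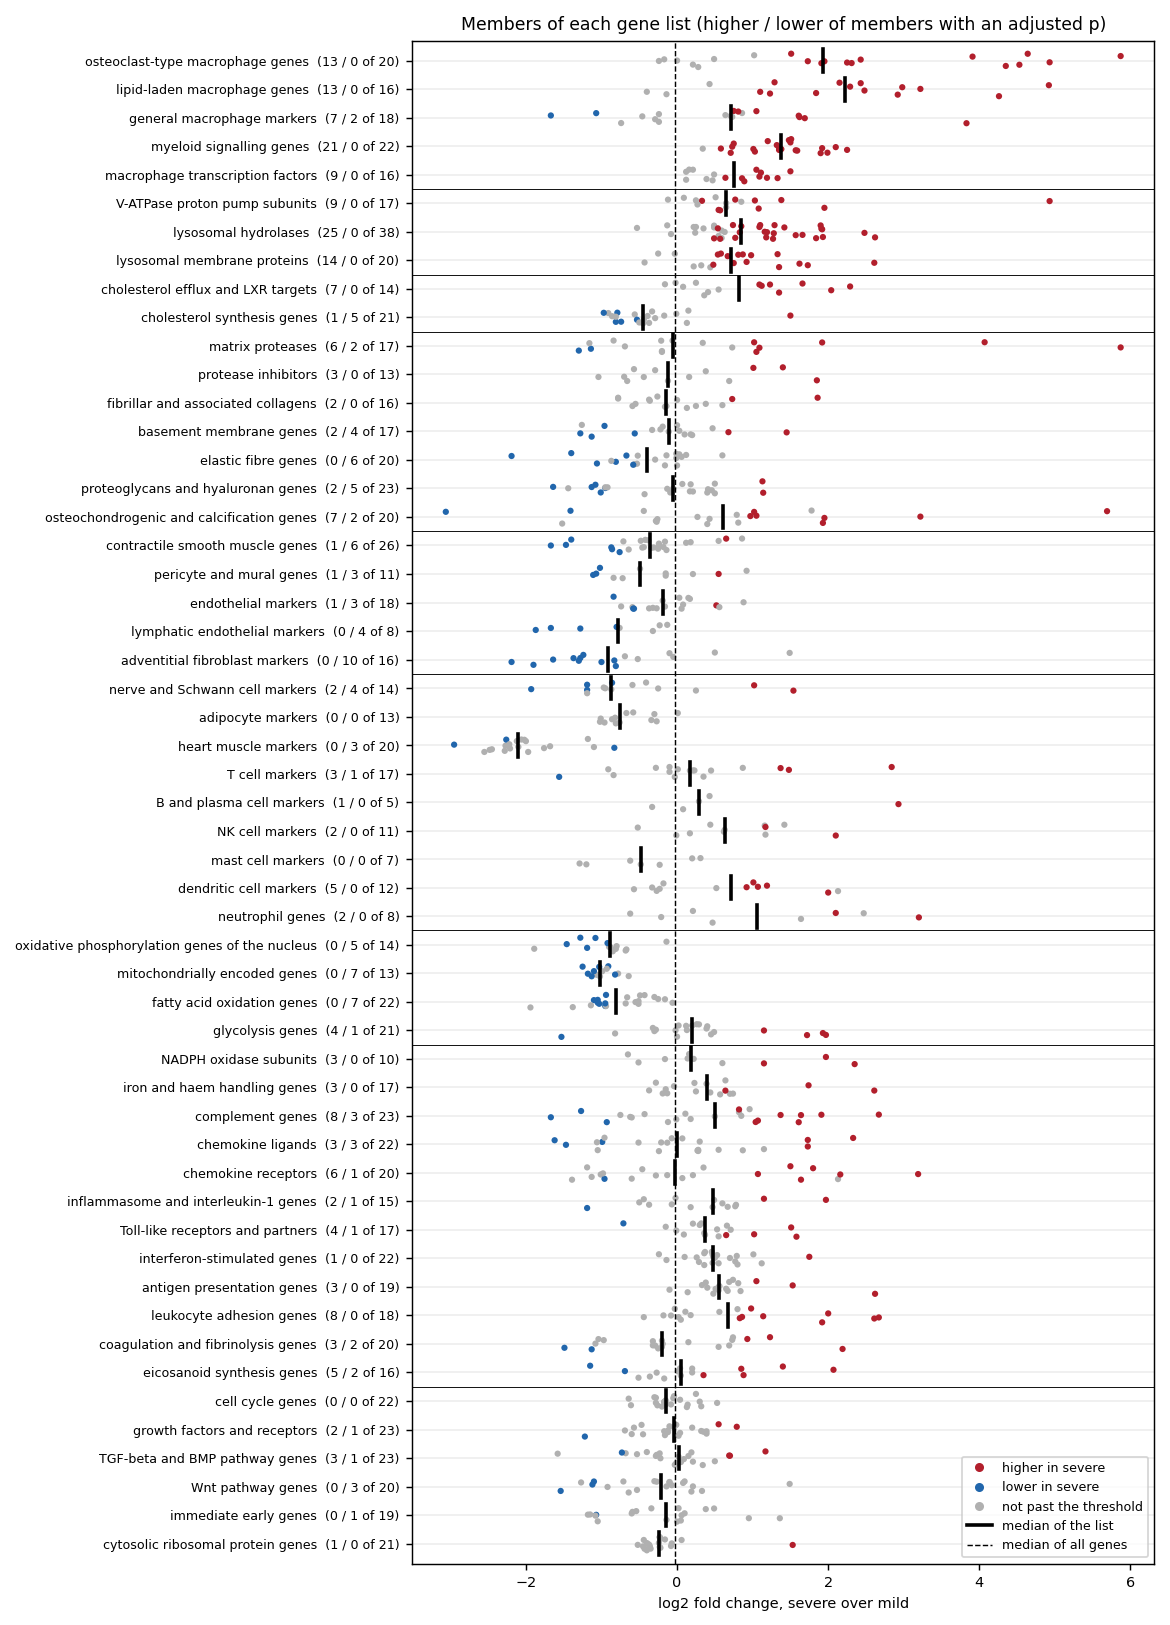
Log2 fold change of severe over mild segments for the tested members of 53 gene lists, 1 point per gene, with the median of each list (thick bar) and of all genes (dashed line). Red and blue points are genes higher and lower in severe segments at an adjusted p under 0.05, and the numbers after each name count them. The medians of the macrophage and lysosome lists lie to the right of the dashed line, and those of the fibroblast, lymphatic, heart muscle and mitochondrial lists lie to its left.

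Lysosomal genes rose broadly and by moderate amounts. Of 38 hydrolases tested, 25 were higher and 0 lower in severe segments (median log2 fold change 0.84), and they supplied 1.14% of all normalized counts in severe and 0.412% in mild segments. CTSD, an aspartic protease, averaged 10014 normalized counts in severe and 1792 in mild segments (log2 2.48 ± 0.26, adjusted p = 2.56e-18 by DESeq2). CTSS, the cathepsin that trims the chaperone of MHC class II, averaged 12283 in severe and 1993 in mild segments, 6.16-fold higher. PLD3, a nuclease of the lysosome, rose 3.16-fold, and LIPA, the acid lipase that splits cholesterol esters, averaged 6497 in severe and 1815 in mild segments. CTSL was the hydrolase of lowest fold change (log2 -0.53 ± 0.28, adjusted p = 0.23 by DESeq2). CTSD and LIPA are also counted among the genes of lipid-laden macrophages.

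RNA of genes for lysosomal membrane proteins was higher for most members as well. Of 20 lysosomal membrane proteins, 14 were higher and 0 lower (median log2 fold change 0.71). NPC1, which carries cholesterol out of the lysosome, averaged 910 normalized counts in severe and 356 in mild segments (log2 1.35 ± 0.16, adjusted p = 4.43e-15 by DESeq2). SLC11A1, an iron and manganese carrier of phagosomes, rose 6.10-fold. Of 17 subunits of the V-ATPase, the pump that acidifies lysosomes, 9 were higher and 0 lower (median log2 fold change 0.65). ATP6V0D2 and TCIRG1 among them are also counted among the osteoclast genes. TCIRG1, the osteoclast form of its largest membrane subunit, averaged 688 in severe and 178 in mild segments, while ATP6V1A, part of the catalytic head in all cells, averaged 1426 in severe and 549 in mild segments.

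Cholesterol export and cholesterol synthesis differed in direction. Of 14 genes for efflux and targets of LXR, 7 were higher and 0 lower, with a median log2 fold change of 0.82. Among these 7, APOE, NPC1, NPC2 and NR1H3 are also counted in lists above. ABCG1, which exports cholesterol to HDL, averaged 1043 normalized counts in severe and 329 in mild segments (log2 1.66 ± 0.21, adjusted p = 1.72e-13 by DESeq2). ABCA1, which loads cholesterol onto apolipoprotein A-I, rose 2.17-fold, and PLTP, a phospholipid transfer protein, 4.11-fold. Of 21 genes for cholesterol synthesis and its control, 1 was higher and 5 lower, with a median log2 fold change of -0.45. FDFT1, squalene synthase, fell to 370.2 in severe, against 535 in mild segments (log2 -0.53 ± 0.11, adjusted p = 3.58e-05), and CYP51A1, a demethylase of lanosterol, to 172 in severe, against 302 in mild segments. INSIG1, which holds back synthesis, was the higher member, with 941 in severe and 332 in mild segments. Under the t distribution 3 of the 5 lower genes passed.

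Inflammatory genes rose selectively. Of 10 NADPH oxidase subunits, 3 were higher and 0 lower. CYBB, the catalytic subunit of phagocytes, averaged 3231 normalized counts in severe and 632 in mild segments (log2 2.35 ± 0.24, adjusted p = 2.97e-19 by DESeq2). NOX4, the oxidase of smooth muscle and endothelium, had 3542 in severe and 3050 in mild segments and did not pass (adjusted p = 0.71). Of 18 leukocyte adhesion genes, 8 were higher and 0 lower (median log2 fold change 0.68). SELPLG, the ligand of P-selectin, averaged 581 in severe and 95.5 in mild segments, and ITGB2, the shared chain of leukocyte integrins, 2040 in severe and 510.1 in mild segments. Among endothelial adhesion genes SELE rose 3.79-fold, ICAM1 1.78-fold and ICAM2 1.81-fold, and ICAM1 missed the threshold under the t distribution. SELP had a log2 fold change of -0.03 ± 0.25 and VCAM1 of 0.56 ± 0.38, neither past the threshold.

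Chemokine receptors and ligands changed in both directions. Of 20 receptors tested, 6 were higher and 1 lower, and the lower one missed the threshold under the t distribution. CCR1, a receptor of monocytes and osteoclast precursors, averaged 646 normalized counts in severe and 71.5 in mild segments (log2 3.19 ± 0.37, adjusted p = 2.36e-15 by DESeq2). CXCR4, the receptor of CXCL12, rose 4.48-fold. CCR2, the receptor that draws monocytes from blood, had 33.9 in severe and 66.7 in mild segments and did not pass (adjusted p = 0.27). Of 22 ligands, 3 were higher and 3 lower, with a median log2 fold change of 0.00, and 1 of the 3 lower passed under the t distribution. CXCL14 rose 5.03-fold (adjusted p = 3.98e-11), CXCL16, which also takes up oxidised lipoprotein, 3.32-fold, and CCL14 fell to 60.8 in severe, against 168 in mild segments.

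Complement genes changed in both directions, with 8 higher and 3 lower of 23, and 5 of the 8 passed under the t distribution. C5AR1, the receptor of the C5a fragment, averaged 1343 normalized counts in severe and 358 in mild segments (log2 1.91 ± 0.31, adjusted p = 4.75e-08 by DESeq2), and C3_1, a numbered copy of the central component C3, rose 2.58-fold. The lower ones were CD55_2 and CD59, which protect host cells from complement, and CFP, properdin. CD59 averaged 2108 in severe and 4010 in mild segments (log2 -0.93 ± 0.24, adjusted p = 0.00196). Of 15 inflammasome and interleukin-1 genes, 2 (13.3%) were higher and 1 (6.67%) lower, against 7.19% and 4.80% of all tested genes. IL1RL1, the receptor of IL-33, rose 3.92-fold, NLRP3, the inflammasome sensor, rose 2.22-fold, and IL33 itself fell to 299 in severe, against 684 in mild segments (log2 -1.19 ± 0.34, adjusted p = 0.0065). IL1B averaged 7.74 in severe and 8.18 in mild segments (log2 -0.07 ± 1.10), an error with which a 2-fold change could not be detected.

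Other families of defence genes can be read against the 7.19% of all tested genes that were higher. Of 17 Toll-like receptors and partners, 4 (23.5%) were higher and 1 lower (3 higher and 0 lower under the t distribution), led by UNC93B1, which carries such receptors to endosomes (2.99-fold higher, adjusted p = 1.9e-11 by DESeq2), and TLR8 (2.84-fold higher). Of 22 interferon-stimulated genes, 20 had a positive log2 fold change, but 1 was higher at the threshold and 0 lower, and this was MX2 (log2 1.75 ± 0.35, adjusted p = 2.07e-05). Of 19 antigen presentation genes, 18 had a positive log2 fold change, and 3 (15.8%) were higher and 0 lower, among them CIITA, the switch for MHC class II (2.08-fold higher, adjusted p = 0.01). The MHC class II gene SLA-DRA itself had 2596 normalized counts in severe and 1866 in mild segments and did not pass (adjusted p = 0.53).

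Markers of other leukocytes were a mixed group. Of 17 T cell markers, 3 (17.6%) were higher and 1 (5.88%) lower, against 7.19% and 4.80% of all tested genes. Under the t distribution 1 of the 3 and 0 of the 1 passed. CD3D, CD3E and CD3G, the defining chains of the T cell receptor complex, had low means in both groups. These were 10.2 to 16.4 normalized counts in severe and 11.2 to 12.9 in mild segments, and none passed. CD28, a costimulator, averaged 17.9 in severe and 2.55 in mild segments (log2 2.84 ± 0.65, adjusted p = 0.000397 by DESeq2). CD8B, the lower member, averaged 295 in severe and 870 in mild segments (log2 -1.56 ± 0.51, adjusted p = 0.0243 by DESeq2). The T cell list as a whole supplied 0.00668% of all normalized counts in severe and 0.0109% in mild segments. Of 11 NK cell markers 2 were higher (1 under the t distribution) and 0 lower, and NKG7, a granule protein of killer cells, averaged 320.3 in severe and 74.9 in mild segments. Among 12 dendritic cell markers 5 were higher and 0 lower, led by the costimulator CD86, which macrophages carry too (1250.3 in severe and 313 in mild segments, adjusted p = 3.21e-16). Of 8 neutrophil genes 2 were higher. CSF3R, the G-CSF receptor, averaged 276 in severe and 63.9 in mild segments, while S100A8 averaged 7.18 in severe and 1.41 in mild segments and did not pass (adjusted p = 0.066). Of 5 B and plasma cell markers tested, 1 was higher and 0 lower, and this was BLK, a kinase of B cells, with 9.35 in severe and 1.16 in mild segments (log2 2.93 ± 0.92, adjusted p = 0.0176), a call lost under the t distribution. MS4A1, the defining B cell marker CD20, was listed at 0 in both groups. Of 7 mast cell markers 0 passed by DESeq2, 0 under the t distribution and 0 at an unadjusted p under 0.05.

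RNA of glycolysis genes differed at a few steps, and the part of the mix of cells in this was not tested. Of 21 glycolysis genes 4 (19.0%) were higher and 1 (4.76%) lower, against 7.19% and 4.80% of all tested genes. Their median log2 fold change was 0.20. HK2, the inducible hexokinase, averaged 625 normalized counts in severe and 164 in mild segments (log2 1.93 ± 0.18, adjusted p = 1.05e-23 by DESeq2). HK3, the hexokinase of blood cells, rose 3.93-fold, SLC16A3, a lactate exporter, 3.30-fold, and LDHA, which makes lactate, 2.22-fold. PFKM, the muscle form of phosphofructokinase, fell to 464 in severe, against 1339 in mild segments (adjusted p = 0.0264), and missed the threshold under the t distribution. HK1, the hexokinase of most tissues, had a log2 fold change of 0.13 ± 0.19 and did not pass. In lipid mediator synthesis 5 of 16 genes were higher and 2 lower (3 and 1 under the t distribution), with PTGDS, a prostaglandin D synthase, 4.20-fold and PLA2G7, the lipoprotein-bound phospholipase, 2.64-fold higher. In iron handling, FTL, the ferritin light chain, averaged 28307 in severe and 8481 in mild segments, 3.34-fold higher.

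Proteases and matrix proteins moved in different directions. Of 17 matrix proteases, 6 were higher and 2 lower, and the median log2 fold change was -0.06. MMP12, the macrophage elastase, averaged 74.2 normalized counts in severe and 4.36 in mild segments (log2 4.07 ± 0.79, adjusted p = 1.23e-05 by DESeq2), and MMP14, a membrane collagenase, rose 2.08-fold. MMP2, the gelatinase of mesenchymal cells, had 4288 in severe and 4485 in mild segments (log2 -0.06 ± 0.23, adjusted p = 0.91). ADAMTS1 and ADAMTS5, which cut proteoglycans, were the lower ones (adjusted p = 0.04 and 0.0376), and neither passed under the t distribution. Among 13 protease inhibitors 3 were higher and 0 lower, with CSTB, which inhibits cathepsins, 3.61-fold higher. TIMP1 and TIMP2 had log2 fold changes of -0.29 ± 0.30 and 0.16 ± 0.15 and did not pass.

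Of 16 fibrillar and associated collagens, 2 were higher, against 7.19% of all tested genes, and 0 lower, both at an adjusted p above 0.01 and neither past the threshold under the t distribution. Their summed share of all normalized counts was 3.55% in severe and 4.67% in mild segments. COL1A1 and COL3A1, chains of the main collagens of the wall, had log2 fold changes of -0.37 ± 0.29 and -0.59 ± 0.29 (adjusted p = 0.48 and 0.17 by DESeq2). Of 20 elastic fibre genes, 0 were higher and 6 lower, with a median of -0.40, and 2 of the 6 passed under the t distribution. MFAP5, a microfibril protein, averaged 337 in severe and 1537 in mild segments (log2 -2.19 ± 0.52, adjusted p = 0.000634), and EMILIN2, which binds elastin microfibrils, 144 in severe and 381 in mild segments. ELN, elastin itself, averaged 7343 in severe and 10521 in mild segments and did not pass (adjusted p = 0.38).

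Basement membrane and proteoglycan genes were mixed. LAMC3, a laminin chain, rose 2.73-fold, while LAMA2, the laminin of muscle and Schwann cells, fell to 1169 normalized counts in severe, against 2559 in mild segments (log2 -1.13 ± 0.26, adjusted p = 0.000396 by DESeq2). In all, 2 of 17 basement membrane genes were higher and 4 lower. Of 23 proteoglycan and hyaluronan genes, 2 were higher and 5 lower, and 3 of the 5 passed under the t distribution. SDC2, a syndecan, averaged 6526 in severe and 2977 in mild segments (log2 1.13 ± 0.14, adjusted p = 5.99e-14) and CD44, the hyaluronan receptor, 2932 in severe and 1330 in mild segments. DCN, decorin, which coats collagen fibrils, averaged 7059 in severe and 22074 in mild segments (log2 -1.64 ± 0.50, adjusted p = 0.0125), and missed the threshold under the t distribution. LUM, a close relative of decorin, had a log2 fold change of -0.05 ± 0.37.

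Of 20 genes of cartilage, bone and calcification, 7 were higher and 2 lower, with a median log2 fold change of 0.61, and 3 of the 7 and 1 of the 2 passed under the t distribution. After SPP1, the members of smallest adjusted p were ANKH, which exports the mineral inhibitor pyrophosphate, and TNFRSF11B, the decoy receptor osteoprotegerin. ANKH averaged 1609 normalized counts in severe and 824 in mild segments (log2 0.97 ± 0.22, adjusted p = 0.0003 by DESeq2), and TNFRSF11B rose 2.03-fold. RUNX2, the master factor of bone, averaged 85.3 in severe and 41.2 in mild segments (adjusted p = 0.0166), and missed the threshold under the t distribution. SOX9, the master factor of cartilage, averaged 12.1 in severe and 34.3 in mild segments and did not pass (adjusted p = 0.089).

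Markers of adventitial fibroblasts, the cells of the outer wall, were lower for 10 of 16 members and higher for 0, with a median log2 fold change of -0.91, and 7 of the 10 passed under the t distribution. TNXB, tenascin-X, averaged 2510.1 normalized counts in severe and 5938 in mild segments (log2 -1.24 ± 0.28, adjusted p = 0.000373 by DESeq2). DPT, dermatopontin, averaged 726 in severe and 2268 in mild segments, and PCOLCE2, which enhances collagen processing, 562 in severe and 1366 in mild segments. PI16, which marks a stem-like fibroblast of the adventitia, averaged 2239 in severe and 8359 in mild segments (log2 -1.90 ± 0.65, adjusted p = 0.0328), and missed the threshold under the t distribution. PDGFRA, the growth factor receptor of fibroblasts, had a log2 fold change of -0.69 ± 0.30 and did not pass. Of 8 lymphatic endothelial markers, 0 were higher and 4 lower (2 under the t distribution), among them RELN, a secreted guidance protein, and PROX1, the master factor of lymphatic vessels, with 102 in severe and 373 in mild segments and a call that was lost under the t distribution. Lists for the outer wall moved with markers of heart muscle, whose share of all normalized counts was 0.421% in severe and 1.64% in mild segments, and of fat cells, with 0.0462% in severe and 0.0766% in mild segments. Of 13 fat cell markers 0 passed by DESeq2 and 1 had an unadjusted p under 0.05. Their part in these results was not tested.

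Smooth muscle genes were lower in part. Of 26 contractile genes tested, 1 was higher and 6 lower, with a median log2 fold change of -0.36 and a share of all normalized counts of 1.79% in severe and 2.16% in mild segments, and 4 of the 6 passed under the t distribution. DES, desmin, averaged 6675 normalized counts in severe and 17623 in mild segments (log2 -1.40 ± 0.33, adjusted p = 0.000622 by DESeq2). CNN1, calponin, averaged 5118 in severe and 9356 in mild segments, and TPM1, a tropomyosin, 16807 in severe and 30545 in mild segments. CNN1, a defining marker, kept its call under the t distribution (log2 -0.87 ± 0.24, adjusted p = 0.00526 by DESeq2). The other defining markers had smaller changes: MYH11, the smooth muscle myosin, had a log2 fold change of -0.42 ± 0.24, TAGLN of -0.44 ± 0.24 and ACTA2 of -0.24 ± 0.22, and none passed (adjusted p = 0.28, 0.26 and 0.57). DES, TPM1, CASQ2 and PLN among the 6 lower genes are made in heart muscle too, and the part of the smaller heart muscle share in their fall was not tested. ITGA8, an integrin of smooth muscle, was the higher one, with 16336 in severe and 10427 in mild segments. ITGA8 and PLN missed the threshold under the t distribution.

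Of 11 pericyte and mural cell genes, 1 was higher (0 under the t distribution) and 3 lower. KCNJ8 and ABCC9, which together form the ATP-sensitive potassium channel of vessels, averaged 137 and 560 normalized counts in severe and 296 and 1174 in mild segments. Of 18 endothelial markers, 1 was higher (5.56%, against 7.19% of all tested genes) and 3 lower (16.7%, against 4.80%). The changes were small. PECAM1 had a log2 fold change of -0.58 ± 0.13 (adjusted p = 0.00012 by DESeq2), ERG, an endothelial transcription factor, rose 1.43-fold, and NOS3, the nitric oxide synthase, fell to 176 in severe, against 259 in mild segments (adjusted p = 0.0399), and missed the threshold under the t distribution. Of 14 nerve and Schwann cell markers, 2 were higher and 4 lower, and 1 of the 4 passed under the t distribution. L1CAM, an adhesion protein, rose 2.91-fold, and SOX10, the defining factor of Schwann cells, fell to 8.23 in severe, against 32.0 in mild segments, a call lost under the t distribution.

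Heart muscle markers had smaller means in severe than in mild segments, with wide errors. The median log2 fold change of 20 markers was -2.11, yet 0 were higher and 3 lower, and 1 of the 3 passed under the t distribution. MYH7, the ventricular myosin, averaged 16226 normalized counts in severe and 70686 in mild segments (log2 -2.12 ± 1.41, adjusted p = 0.38 by DESeq2). MYH7, MYL2, TNNT2 and TNNI3 had standard errors of 1.35 to 1.42, against a median of 0.206 for genes of good coverage. TNNC1, one of the 3 that passed at the authors' threshold, averaged 2295 in severe and 10994 in mild segments. MYH7 averaged 12849 in moderate and 1022 in severe diabetic segments.

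Every tested gene of the 3 mitochondrial lists had a negative log2 fold change, and part of them passed the test. Of 13 genes encoded in mitochondrial DNA, 0 were higher and 7 lower, with a median log2 fold change of -1.02, and they supplied 0.889% of all normalized counts in severe and 1.70% in mild segments. CYTB, a subunit of complex III, averaged 2724 normalized counts in severe and 6181 in mild segments (log2 -1.18 ± 0.35, adjusted p = 0.0101 by DESeq2). Of 14 nuclear genes of oxidative phosphorylation, 0 were higher and 5 lower (median log2 fold change -0.89), led by NDUFA4_2, which averaged 1094 in severe and 3004 in mild segments (adjusted p = 0.0278). Of 22 fatty acid oxidation genes, 0 were higher and 7 lower (median log2 fold change -0.81). ECI1, which shifts double bonds, averaged 162 in severe and 331 in mild segments, and ACADL, which takes the first step on long chains, 746 in severe and 1542 in mild segments. These calls lie close to the threshold: under the t distribution 1 of the 7 mitochondrially encoded genes, 0 of the 5 nuclear ones and 1 of the 7 fatty acid oxidation genes passed. Heart muscle, which is rich in mitochondria, had the shares of counts given above, 0.421% in severe and 1.64% in mild segments, and its part in these differences was not tested.

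Differences in genes of cell division were not detectable. Of 22 cell cycle genes 0 passed by DESeq2, 0 under the t distribution and 0 at an unadjusted p under 0.05, and the median log2 fold change was -0.15. The proliferation marker MKI67 averaged 454 normalized counts in severe and 443 in mild segments (log2 0.04 ± 0.21, adjusted p = 0.95). Of 23 genes of the TGF-beta and BMP pathways, 3 were higher and 1 lower (0 lower under the t distribution). TGFB1, the main ligand of immune cells, averaged 537 in severe and 333 in mild segments (log2 0.69 ± 0.13, adjusted p = 6.16e-06), and TGFBR1, its type I receptor, rose 1.62-fold. Among 23 growth factors and receptors, 2 were higher and 1 lower (8.7% and 4.35%, against 7.19% and 4.80% of all tested genes; 1 and 0 under the t distribution), with HGF, the hepatocyte growth factor, 1.73-fold higher (adjusted p = 0.00179). Of 20 Wnt pathway genes, 0 were higher and 3 lower, of which 0 passed under the t distribution. Of 20 coagulation and fibrinolysis genes, 3 were higher and 2 lower (1 lower under the t distribution). F5, coagulation factor V, rose 4.58-fold (adjusted p = 4.19e-13) and THBS1, thrombospondin 1, 2.35-fold, while TFPI, the inhibitor of tissue factor, fell to 37.0 in severe, against 103 in mild segments. Of 21 cytosolic ribosomal protein genes, 1 (4.76%) was higher and 0 lower. The higher one was RPS16, whose mean of 26.7 in severe and 9.15 in mild segments is far below those of the other members. Neither RPS16 nor IER3, the lower one (5.26%) of 19 immediate early genes, passed under the t distribution. FOS had a log2 fold change of -1.15 ± 0.50 that did not pass (adjusted p = 0.12 by DESeq2).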

How the data were processed

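The authors' build was Sscrofa11.1 and their test DESeq2, both without a version, per the submitters' processing notes. Aligner, counter and annotation: not given in the sources used here. RNA had been poly-A selected and randomly primed, per the labels' protocols. The authors deposited, for each comparison, a normalized mean count per group, a signal that is never negative per the file headers. They also deposited log2 fold changes with standard errors, p-values and adjusted p-values from DESeq2, per the file headers. The authors deposited a test score in some of the tables, which was not used for any direction.

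Of 35252 lines of the authors' deposited table, 24 held dates in place of names and were left out. This leaves 35228 names, 5042 of them without a fold change and 35 more without a p. A p was given for 30151 names and an adjusted p for 20294. No adjusted p was given for 9857 names of low mean, and these were not counted as tested. Dividing each fold change by its standard error gave two-sided Wald p-values within 4.22e-15 of those the authors deposited. Computed here were counts, list medians, shares of summed means, group errors and the alternatives, with Python 3.11.15, pandas 2.3.3 and scipy 1.17.1, tested on simulated data.

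The 53 lists hold 983 symbols: 799 were found under the same name, 24 under a synonym, 49 through the gene identifier, 2 through an older name and 27 as the numbered copy of highest mean, while 82 were not matched. Coordinates are 1-based, from the RefSeq gene table of Sscrofa11.1. Genes are named by this rule: the 15 largest rises and falls and the 10 smallest adjusted p each way (symbol, mean of at least 20), and up to 4 members of each list by smallest adjusted p with up to 2 that moved the other way, plus defining markers. A few genes the rule gives are not reported here. Other list members are named for their role and were chosen with values seen. Members and lists were chosen with earlier results of these data known. Some genes belong to several lists, so counts of different lists are not independent of each other. The number of segments showing a direction cannot be given from group means.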

Additional observations from a re-analysis of the deposited data

How the results depend on the processing

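The 1460 higher genes became 1312 with Benjamini-Hochberg adjustment over every gene with a p, 1410 with a mean of at least 10, 1564 with fold changes centred on their median and 1007 at an adjusted p under 0.01, and 778 of them changed at least 2-fold. The 975 lower genes became 708, 1008, 789 and 357 under those settings, and 460 changed at least 2-fold. With a t distribution on 18 degrees of freedom 1026 were higher and 374 lower. Names with a symbol gave 1034 higher and 658 lower. The log2 ratio of the group means with a pseudocount of 1, in place of the fitted fold change, lay within 1 standard error of it for all 243 named genes. Both come from the same counts, so this closeness was built in and says little about robustness. Of the named genes 55 missed the threshold with the t distribution, 24 with adjustment over every gene with a p and 7 when centred. Of 106 counts of list members, 34 moved by over 1.5 times with the t distribution and 15 with adjustment over every gene with a p. Leaving out each replicate was not run, since the tables used hold group means only. No paired analysis was possible because the columns used carry no replicate numbers. Precision at low means limits what can be seen: the median standard error was 0.495 on the log2 scale for tested genes with a mean under 50.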

Other observations

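Some names without a symbol changed by far more than any gene with one. LOC100517243 averaged 0.662 normalized counts in severe and 1442 in mild segments (log2 -11.15 ± 1.78, adjusted p = 3.47e-08 by DESeq2 in the authors' deposited table). Its means were 692 in moderate and 668 in severe diabetic segments. LOC100621926 was listed at 0 in severe segments and averaged 45.2 in mild segments (log2 -7.93 ± 1.77). It averaged 15.6 in moderate and 154 in severe diabetic segments. In the other direction LOC100621421 averaged 1554 in severe and 31.4 in mild segments (log2 5.64 ± 0.49, adjusted p = 3.22e-27), with 1210.4 in moderate and 7177 in severe diabetic segments. LOC100738781 averaged 64.8 in severe and 1.15 in mild segments. These 4 names were chosen after their values were seen, and the genes behind them are not named here.

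Numbered copies of a gene name were not always called together. Of 168 names with at least 2 copies tested, 10 had at least 2 copies called in the same direction, 22 had exactly 1 called and 0 had copies called in opposite directions. Of all tested genes 7.19% were higher and 4.80% lower. A called copy beside an uncalled copy is no test of a difference between them, and none was run. For MMRN2, an endothelial matrix protein, copy MMRN2_2 averaged 23.1 normalized counts in severe and 434 in mild segments (log2 -4.24 ± 0.92, adjusted p = 0.000139 by DESeq2). Copy MMRN2_1 averaged 672 in severe and 455 in mild segments (log2 0.56 ± 0.97). How reads were divided between copies is not given in the sources used here.

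Severe segments with diabetes, set beside those without, had still higher means for several leading genes, although the tables share the severe libraries without diabetes. CHI3L1 averaged 12613 in severe diabetic and 4662 in severe non-diabetic segments, TREH 953 in severe diabetic and 250.1 in severe non-diabetic segments, and DCSTAMP 361 in severe diabetic and 77.2 in severe non-diabetic segments. TCN1 had the opposite order, with 314 in severe diabetic and 752 in severe non-diabetic segments.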
